A study of Homo sapiens with 8 samples.

Results

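The genes described here encode the proteins that carry glucose into the cell, break it down to pyruvate and lactate, and hold the branch points around that route. They were 30 genes taken by symbol from the 57996 symbols of the count tables, and all 30 were counted deeply enough to be tested. HAP1, a human line that is mostly haploid and adherent, comes from a chronic myelogenous leukaemia. The knockout cells were clone 11, 1 HAP1 clone in which BCDIN3D was knocked out, and they were set against wild-type HAP1 cells. Both were grown for 48 h in IMDM with 10% serum, and RNA of integrity number 10 went into stranded total RNA libraries. There were 2 knockout and 2 wild-type RNA-seq libraries, 1 of each under each of 2 dates in the library titles, called replicate 1 and replicate 2 here. Small RNA libraries of the same RNA were not used here. With a single knockout clone, a difference between clones and an effect of the knockout cannot be told apart. The series text calls the replicates biological, without naming separate cultures, and p-values therefore reflect no more than the spread among these libraries.

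Glycolysis splits glucose into pyruvate in a chain of enzyme reactions and yields ATP and NADH on the way. Several steps can be run by more than one isozyme, encoded by separate genes that differ in tissue use and in how the enzyme is regulated. Phosphofructokinase is the main control point of the chain. Proliferating cell lines commonly turn much of their pyruvate into lactate, which leaves the cell through monocarboxylate transporters, while pyruvate dehydrogenase kinases hold pyruvate back from the mitochondria. BCDIN3D, the gene knocked out here, encodes an enzyme that methylates the terminal phosphate of histidine tRNA.

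Library totals lay between 20065041 and 24415272 counts. BCDIN3D stood at 1.56 and 2.71 CPM (counts scaled to a common library size with TMM factors) in the knockout libraries, against 7.40 and 4.90 CPM in the wild-type libraries (log2 fold change -1.52 ± 0.24, edgeR adjusted p = 2.06e-05). Of 12 blood cell markers 3 reached a mean of 1 CPM, and the haemoglobin gene HBG1 had 0 counts in every library. The summed level of that list was 64.1 and 64.8 CPM in knockout and 60.2 and 66.0 CPM in wild-type. Its members went opposite ways within that sum. TAL1, a blood transcription factor gene that makes up most of it, was higher, with 60.0 and 59.7 CPM in knockout and 45.8 and 49.9 CPM in wild-type (log2 fold change 0.32 ± 0.08, edgeR adjusted p = 0.00564). KIT, a receptor gene of blood progenitors, was lower, with 0.804 and 1.41 CPM in knockout and 10.8 and 11.0 CPM in wild-type (-3.30 ± 0.23, adjusted p = 2.61e-16). Of 6 mesenchymal markers 4 reached 1 CPM, with sums of 507 and 482 CPM in knockout and 427 and 414 CPM in wild-type. Most of that sum was VIM, with 336 and 311 CPM in knockout and 272 and 262 CPM in wild-type. SPARC was also higher, with 95 and 91 CPM in knockout and 79 and 70 CPM in wild-type. FN1, COL1A1 and COL1A2 overlapped between groups, and THY1, under 1 CPM, was lower in both knockout libraries. Of 6 epithelial markers 3 reached 1 CPM, with sums of 61.7 and 52.6 CPM in knockout and 82.6 and 75.6 CPM in wild-type. The part of these differences in the results below was not tested. In bulk RNA, fewer cells of a type and less RNA per cell cannot be told apart.

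In the knockout clone 3 of the 30 genes were higher and 0 were lower. ENO2, the enolase gene best known from neurons, was 37.6% higher (95% interval of the log2 fold change 0.32 to 0.60). PFKL, the liver-type phosphofructokinase gene, was 21.4% higher (0.16 to 0.40), and PFKM, the muscle-type one, was 14.7% higher (0.07 to 0.32). PFKM and 26 genes that were not called had fitted log2 fold changes smaller than 0.25 in either direction, 27 of the 30, as had 12204 of the 16233 tested genes. The 3 beyond that were ENO2, PFKL and ALDOC, the last not called, at -0.27 with a 95% interval of -0.60 to 0.07. The median log2 fold change (knockout over wild-type) was 0.04 over the 30 genes and 0.00 over all tested genes. Together the 30 genes took 1.75% and 1.78% of counts in knockout, against 1.73% and 1.72% in wild-type.

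Calls are adjusted p-values under 0.05 from edgeR's quasi-likelihood test, with Benjamini-Hochberg adjustment over all 16233 tested genes. Over all genes 6.56% were called, 3.06% higher and 3.50% lower. Before adjustment, edgeR's p was under 0.05 for 5 of the 30 on the higher side and 1 on the lower. Of all 16233 tested genes 1362 and 1349 were so. The DESeq2 calls were ENO2 and PFKL, both higher, where 3.61% of all genes were called, 1.57% higher and 2.04% lower. With that date as a replicate block, which pairs the libraries of 1 date, 4 were higher and 1 lower, where 9.55% of all genes were called, 4.72% higher and 4.83% lower. Calls shifted when 1 library was left out, among the members as over all genes. Without wild-type replicate 1 the log2 fold change was 0.43 for ENO2, 0.26 for PFKL and 0.19 for PFKM. Without knockout replicate 1 it was -0.18 for LDHA and -0.22 for SLC16A1. In CPM, both knockout libraries lay above both wild-type libraries for 14 of the 30 genes and below them for 7. Of all tested genes 23.5% and 21.8% lay so.

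**Figure D1:**
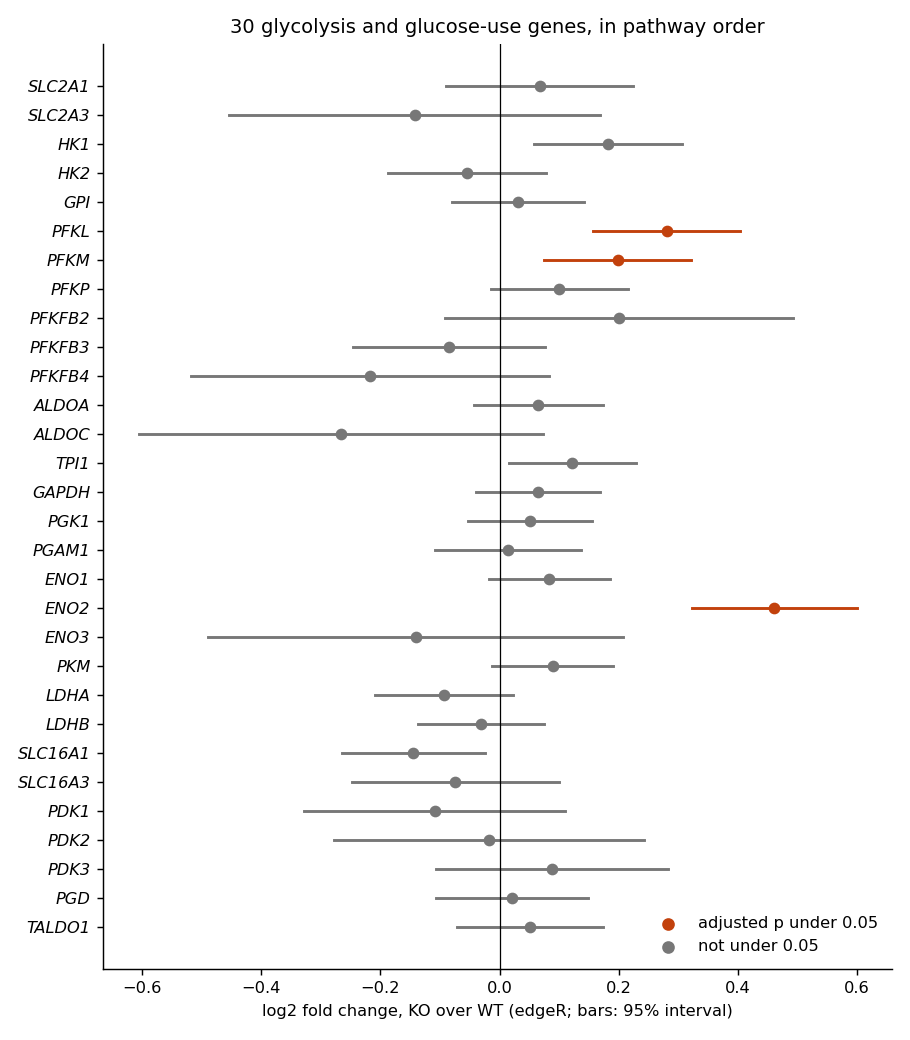
Log2 fold change (knockout over wild-type, x axis) of the 30 genes in pathway order (y axis), with 95% intervals from the edgeR fit on 2 knockout and 2 wild-type libraries. ENO2 lies farthest to the right at 0.46, PFKL and PFKM follow among the called genes in orange, and most of the grey intervals cross 0.

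The bases just before the annotated starts of ENO2, of its main partner ENO1 and of PFKL are shown, since ENO2 and PFKL were the members called in most fits and ENO1 was not called in any. They come from RefSeq on GRCh38.p14 and cover 250 bases up to the start. Capitals mark ACGTG, the core that hypoxia-inducible factors can bind, and GGGCGG, the GC box that SP1 can bind, each searched on both strands. ENO2 (chr12:6914330-6914579, plus strand), ENO1 (chr1:8878687-8878936, minus strand) and PFKL (chr21:44299803-44300052, plus strand) read as follows.
ENO2: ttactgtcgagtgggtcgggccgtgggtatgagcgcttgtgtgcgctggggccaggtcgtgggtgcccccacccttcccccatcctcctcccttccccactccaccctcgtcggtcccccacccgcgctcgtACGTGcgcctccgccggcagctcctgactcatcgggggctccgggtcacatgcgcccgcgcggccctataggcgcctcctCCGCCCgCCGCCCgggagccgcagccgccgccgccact
ENO1: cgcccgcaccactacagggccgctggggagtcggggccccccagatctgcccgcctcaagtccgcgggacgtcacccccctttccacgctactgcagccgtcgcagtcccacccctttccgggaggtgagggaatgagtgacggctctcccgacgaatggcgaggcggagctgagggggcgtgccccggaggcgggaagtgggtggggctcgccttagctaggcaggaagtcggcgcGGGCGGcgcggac
PFKL: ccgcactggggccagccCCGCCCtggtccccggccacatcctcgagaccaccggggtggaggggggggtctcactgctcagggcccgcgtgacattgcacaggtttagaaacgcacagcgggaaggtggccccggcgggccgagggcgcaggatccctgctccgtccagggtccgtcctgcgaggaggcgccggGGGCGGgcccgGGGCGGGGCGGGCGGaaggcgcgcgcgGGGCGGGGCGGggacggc
The ENO2 stretch held 1 ACGTG and 2 GGGCGG, the ENO1 stretch 0 and 1, and the PFKL stretch 0 and 7, some of them overlapping. CACGTG, the E-box that MYC can bind, which contains ACGTG, was in 0 of the 3. Among 35116 such stretches from RefSeq, 18.5% held ACGTG, 6.34% CACGTG and 42.6% GGGCGG. Of the 15 members with a single such stretch, these 3 among them, 7 held ACGTG, 2 CACGTG and 14 GGGCGG. A match describes the letters and is not a binding site.

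Enolase turns phosphoglycerate into phosphoenolpyruvate. ENO2 (chromosome 12, 6914580 to 6923697, GRCh38) had 116 and 113 CPM in the knockout libraries, against 81.9 and 84.8 CPM in the wild-type libraries. The groups were far apart relative to the spread within them. The log2 fold change was 0.46 ± 0.07 (SE, edgeR adjusted p = 1.67e-06), with 0.51 at the earlier date and 0.42 at the later one. It was called in all 10 alternative fits (adjusted p from 7.24e-09 to 0.000453). ENO1, the enolase of most tissues, had 3365 and 3457 CPM in knockout and 3216 and 3223 CPM in wild-type. Its log2 fold change of 0.08 ± 0.05 missed the threshold (edgeR adjusted p = 0.441), and its 95% interval, -0.02 to 0.18, lay wholly below that of ENO2, 0.32 to 0.60. ENO3, the muscle enolase, had 7.38 and 11.0 CPM in knockout and 8.56 and 11.5 CPM in wild-type, with overlapping groups (log2 fold change -0.14 ± 0.17).

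As a share of all enolase reads, ENO2 made up 3.34% and 3.16% in knockout and 2.48% and 2.55% in wild-type. The 95% Wilson intervals were 3.21 to 3.47% and 3.03 to 3.29% in knockout, and 2.37 to 2.60% and 2.45 to 2.67% in wild-type, so those of the groups did not overlap. Such intervals cover counting error only. ENO1 still held 96.5% ± 0.0580 of the reads in knockout and 97.2% ± 0.116 in wild-type (SD, n = 2 each). Shares are of reads and were not corrected for transcript length, so they compare libraries and not the number of molecules of each isozyme. With 2 libraries against 2, an exact two-sided permutation test of a share cannot give a p below 0.333, and the shares are therefore given as a description.

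**Figure D2:**
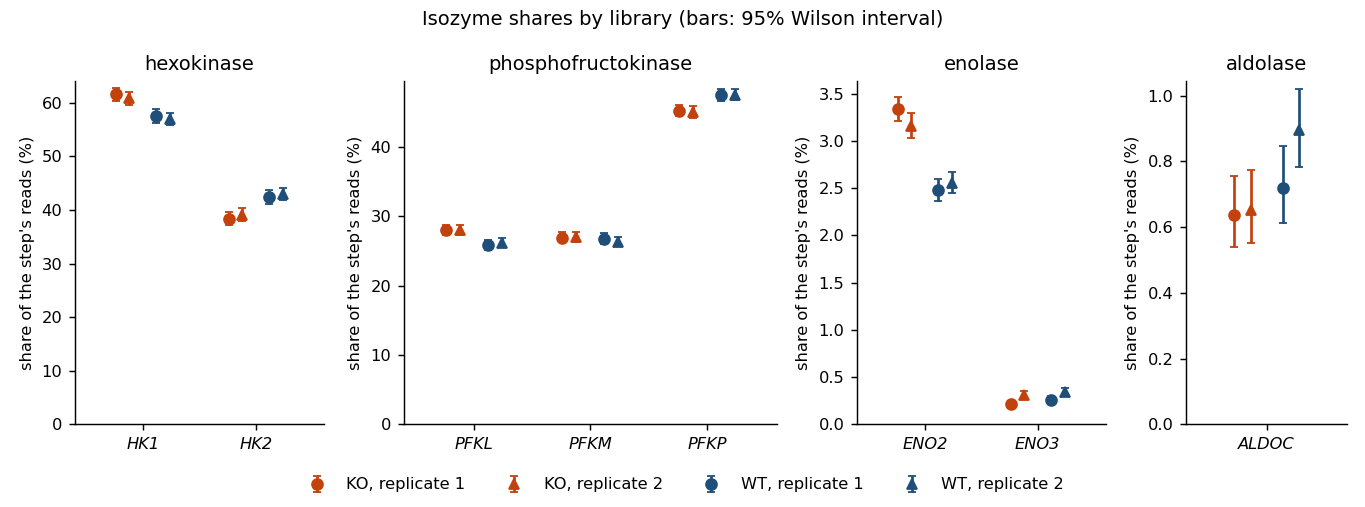
Share of each isozyme in the reads of its step (y axis, percent) in each library, with 95% Wilson intervals, knockout in orange and wild-type in blue. ENO1 and ALDOA, which hold the rest of the enolase and aldolase reads, are not drawn. The knockout points of HK1, PFKL, PFKM and ENO2 lie above the wild-type points, and those of HK2, PFKP and ALDOC lie below. The intervals of PFKM and of ALDOC overlap between groups, and the points of ENO3 overlap.

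The genes around ENO2 gave no call. The nearest 5 tested genes on either side, among them the member TPI1, had log2 fold changes from -0.34 to 0.13 with a median of -0.04. By edgeR 0 of the 10 were called, against 6.56% of all tested genes, and 10 genes are too few to tell 0 from that share. No other gene in the count tables overlapped ENO2 in the RefSeq annotation.

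Phosphofructokinase commits fructose phosphate to glycolysis, and its subunits come from 3 genes. PFKL (chromosome 21, 44300053 to 44327373) had 196 CPM in both knockout libraries, against 159 and 164 CPM in the wild-type libraries. Both knockout values were higher. The log2 fold change was 0.28 ± 0.06 (edgeR adjusted p = 0.00122). The call was kept in 9 of 10 alternatives (adjusted p from 0.000171 to 0.0922) and was lost without wild-type replicate 1. PFKM (chromosome 12, 48105353 to 48146404) had 189 CPM in both knockout libraries and 164 and 165 CPM in the wild-type libraries, with hardly any spread in either group. Its log2 fold change was 0.20 ± 0.06 (edgeR adjusted p = 0.0369). This call was close to the threshold: 3 of 10 alternatives kept it, it was lost whenever any 1 library was left out, and over all of them the adjusted p ran from 0.00658 to 0.327 while the log2 fold change stayed between 0.17 and 0.20. PFKP, the platelet-type gene and the one with most reads of the 3, had 317 and 314 CPM in knockout and 291 and 297 CPM in wild-type. Its log2 fold change of 0.10 ± 0.06 missed the threshold (edgeR adjusted p = 0.403, 95% interval -0.01 to 0.22).

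Summed over the 3 genes, phosphofructokinase stood at 700 ± 1.29 CPM in knockout and 620 ± 7.85 CPM in wild-type (SD, n = 2 each), a ratio of 1.13 that was the largest of the 16 steps. Within that sum PFKL made up 28.0% ± 0.0502 in knockout and 26.0% ± 0.259 in wild-type, and PFKP made up 45.1% ± 0.124 and 47.5% ± 0.0463. The PFKM share, 26.9% and 27.0% in knockout and 26.8% and 26.3% in wild-type, differed by 0.422 points. PFKL had no neighbour that was called among the 10 nearest tested genes (edgeR, median log2 fold change 0.08). Around PFKM 2 of 10 were called, both higher: COL2A1 (0.38 ± 0.05) and TMEM106C (0.33 ± 0.07). Around HK1 it was 1 of 10, and around SLC16A1 also 1 of 10, where 6.56% of all tested genes were called. PFKM shares 727 bases with SENP1, whose log2 fold change was -0.01, and PFKFB2 shares 9268 bases with YOD1, which had 54 counts in knockout and 49 in wild-type. The strand setting of the counting is not given in the sources used here, so reads in such overlaps cannot be told apart.

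The PFKFB enzymes make and remove the fructose bisphosphate that activates phosphofructokinase. None of the 3 genes was called by edgeR or DESeq2, and at an unadjusted p under 0.05 the number was 0 as well. PFKFB3, which favours synthesis of the activator, had 50.7 and 52.8 CPM in knockout and 53.8 and 56.0 CPM in wild-type (log2 fold change -0.09 ± 0.08). PFKFB2 had 10.4 and 11.3 CPM in knockout and 9.80 and 9.07 CPM in wild-type (0.20 ± 0.15). PFKFB4 had 8.89 and 9.10 CPM in knockout and 9.37 and 11.5 CPM in wild-type (-0.22 ± 0.15). The groups did not overlap for any of the 3, as was so for 45.3% of all tested genes. With so few reads the intervals were wide, from -0.09 to 0.49 for PFKFB2 and from -0.52 to 0.08 for PFKFB4.

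**Figure D3:**
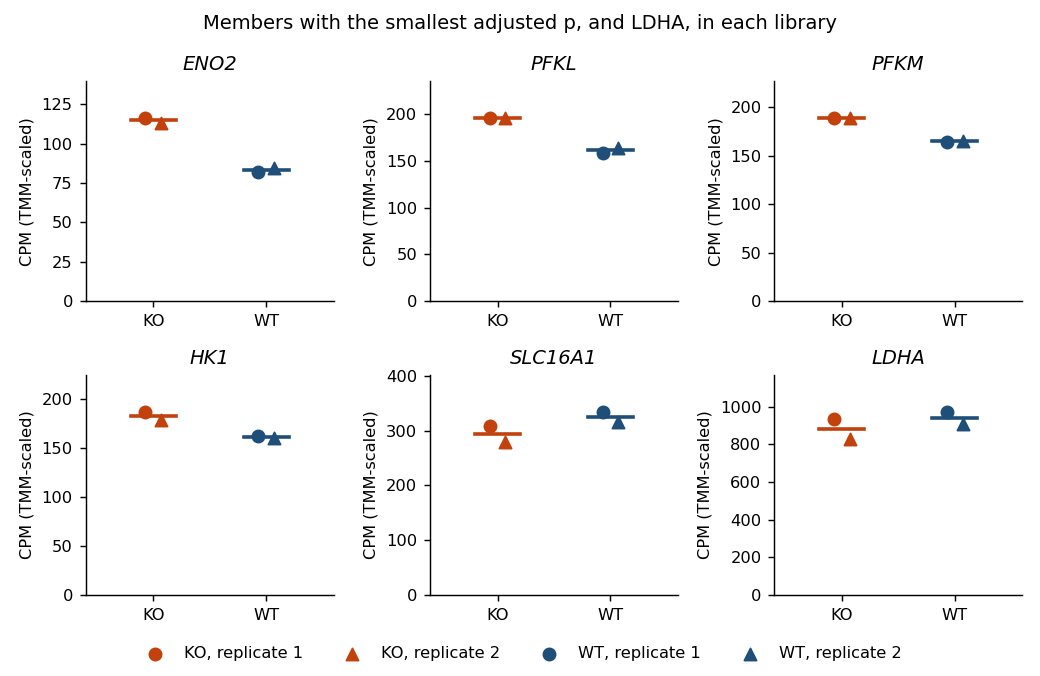
TMM-scaled CPM (y axis, from 0) of 6 members in each library, knockout on the left in orange and wild-type on the right in blue, with circles for replicate 1, triangles for replicate 2 and bars for group means. The knockout points of ENO2, PFKL, PFKM and HK1 lie above the wild-type points, those of SLC16A1 lie below, and those of LDHA overlap them.

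At the entry of the pathway, hexokinase traps glucose in the cell by phosphorylating it. HK1, the isozyme of most tissues, had 187 and 178 CPM in knockout, against 162 and 160 CPM in wild-type, so both knockout libraries were higher. The log2 fold change was 0.18 ± 0.06 and missed the threshold (edgeR adjusted p = 0.0684). It passed with the date as a replicate block (adjusted p = 0.0149) and without knockout replicate 2, over a range of 0.0149 to 0.411 in 10 alternatives. HK2, the isozyme of muscle and of many tumours, had 117 and 115 CPM in knockout and 120 and 121 CPM in wild-type (-0.06 ± 0.07, adjusted p = 0.769). The HK2 share of the reads of both genes was 38.4% and 39.1% in knockout and 42.5% and 43.0% in wild-type. Its Wilson intervals, 37.2 to 39.6% and 37.9 to 40.4% in knockout and 41.2 to 43.7% and 41.8 to 44.1% in wild-type, did not overlap between groups. HK3 and HKDC1, further hexokinase family genes, were barely counted, with 1 and 2 counts over both knockout libraries and 1 and 4 over both wild-type libraries.

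The glucose transporter genes gave no call. SLC2A1, which encodes the GLUT1 transporter of most cells, had 105 and 118 CPM in knockout and 117 and 96.9 CPM in wild-type. The 2 dates went opposite ways, with log2 ratios of -0.15 and 0.29. SLC2A3, the gene of the neuronal transporter GLUT3, had 8.18 and 7.89 CPM in knockout and 8.75 and 8.99 CPM in wild-type (log2 fold change -0.14 ± 0.15). GPI, which isomerises glucose phosphate to fructose phosphate, had 528 and 513 CPM in knockout and 506 and 513 CPM in wild-type (0.03 ± 0.06).

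Aldolase splits fructose bisphosphate into a pair of triose phosphates. ALDOA, the muscle and general isozyme, had 988 and 1040 CPM in knockout and 968 and 970 CPM in wild-type (log2 fold change 0.07 ± 0.05, edgeR adjusted p = 0.628). ALDOC, the brain isozyme, had 134 and 136 counts in knockout and 146 and 216 in wild-type, or 6.34 and 6.84 CPM against 7.02 and 8.75 CPM. Both knockout values were lower, but the wild-type libraries differed from each other by more than the groups did. The ALDOC share of aldolase reads was 0.637% and 0.653% in knockout and 0.719% and 0.894% in wild-type. Its Wilson intervals overlapped between groups, at 0.538 to 0.754% and 0.553 to 0.772% in knockout and 0.612 to 0.845% and 0.783 to 1.02% in wild-type. The difference of -0.161 points shrank to -0.0742 without wild-type replicate 2 and grew to -0.248 without wild-type replicate 1. The log2 fold change of ALDOC was -0.27 ± 0.17 (edgeR adjusted p = 0.475), and its 95% interval, -34.2 to 5.23% as a change in level, shows how wide the limits are at this depth.

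The steps from triose phosphate to pyruvate each rest mainly on 1 gene. TPI1, which interconverts the triose phosphates, had 1281 and 1338 CPM in knockout and 1207 and 1200 CPM in wild-type. Its log2 fold change of 0.12 ± 0.05 had an interval of 0.02 to 0.23 and missed the threshold (edgeR adjusted p = 0.206). PKM, the pyruvate kinase gene, had 3196 and 3201 CPM in knockout and 3024 and 2991 CPM in wild-type (0.09 ± 0.05). PGK1, the phosphoglycerate kinase gene, had 1571 and 1553 CPM in knockout and 1521 and 1494 CPM in wild-type (0.05 ± 0.05). In all of these both knockout libraries were higher, by less than the fit could call.

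GAPDH, the dehydrogenase gene widely used as a reference in expression assays, had 2388 and 2571 CPM in knockout and 2382 and 2359 CPM in wild-type (log2 fold change 0.06 ± 0.05). Nearly all of that gap came from the later date, with log2 ratios of 0.00 and 0.12. PGAM1, the phosphoglycerate mutase gene, had 192 and 207 CPM in knockout and 197 and 198 CPM in wild-type (0.01 ± 0.06), and the groups overlapped. GAPDH, PGAM1, TPI1 and LDHA have processed copies elsewhere in the genome, to which their reads can be misassigned. In these tables the named pseudogenes held 0.237% as many counts as GAPDH in knockout and 0.260% in wild-type, 0.476% and 0.567% for PGAM1, 0.298% and 0.292% for TPI1, and 0.480% and 0.452% for LDHA. The largest such share was that of SLC2A3, a gene of few reads, with 7.88% in knockout and 3.71% in wild-type.

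The fitted values of the lactate dehydrogenase and lactate transporter genes lay below 0. So did those of SLC2A3, HK2, PFKFB3, PFKFB4, ALDOC and ENO3 among the genes of earlier steps. Lactate dehydrogenase turns pyruvate into lactate and back. LDHA had 933 and 830 CPM in knockout and 974 and 907 CPM in wild-type, and the groups overlapped (log2 fold change -0.09 ± 0.06, edgeR adjusted p = 0.457). Its values differed between the dates in both groups, and it was called lower without knockout replicate 1 (adjusted p = 0.0268), over a range of 0.0268 to 0.979 in 10 alternatives. LDHB had 1153 and 1157 CPM in knockout and 1182 and 1178 CPM in wild-type (-0.03 ± 0.05). The LDHA share of the reads of both genes was 44.7% and 41.8% in knockout and 45.2% and 43.5% in wild-type, with overlapping groups.

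SLC16A1, the gene of the lactate transporter MCT1, had 309 and 280 CPM in knockout, against 335 and 316 CPM in wild-type. Both knockout libraries were lower. The log2 fold change was -0.14 ± 0.06 and missed the threshold (edgeR adjusted p = 0.171). It passed with the date as a replicate block (adjusted p = 0.0331) and without knockout replicate 1 (adjusted p = 0.0140), over a range of 0.0140 to 0.775. SLC16A3, the gene of the lactate exporter MCT4, had 48.3 and 41.8 CPM in knockout and 45.3 and 49.4 CPM in wild-type (-0.07 ± 0.09).

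The kinases that switch off pyruvate dehydrogenase also gave no call. PDK1 had 21.0 and 19.7 CPM in knockout and 20.6 and 23.2 CPM in wild-type. PDK2 had 13.0 and 13.8 CPM in knockout and 13.6 and 13.4 CPM in wild-type. PDK3 had 30.6 and 34.8 CPM in knockout and 32.9 and 28.8 CPM in wild-type. The groups overlapped for all 3, and the log2 fold changes were -0.11 ± 0.11, -0.02 ± 0.13 and 0.09 ± 0.10. In the pentose phosphate branch PGD, the phosphogluconate dehydrogenase gene, had 229 and 204 CPM in knockout and 221 and 206 CPM in wild-type (0.02 ± 0.06). TALDO1, which encodes transaldolase, had 188 and 194 CPM in knockout and 182 and 187 CPM in wild-type (0.05 ± 0.06).

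Beyond the 30 genes, 113 others of the same and neighbouring pathways were listed, and 88 of them were counted deeply enough to be tested. Of these 7 were higher and 3 lower by edgeR, with a median log2 fold change of -0.01, where 3.06% of all tested genes were higher and 3.50% lower. The DESeq2 counts were 2 higher and 2 lower (1.57% and 2.04% of all genes), and the block on the date gave 10 and 5 (4.72% and 4.83%). These counts shifted when 1 library was left out, as did those over all genes. SLC16A7 and GFPT2 were the 2 called genes that kept their call in every alternative, and EGLN3 lost its own in 1. Without wild-type replicate 1 the other 7 all lost theirs, with adjusted p from 0.101 for UGP2 to 0.498 for BSG.

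**Figure D4:**
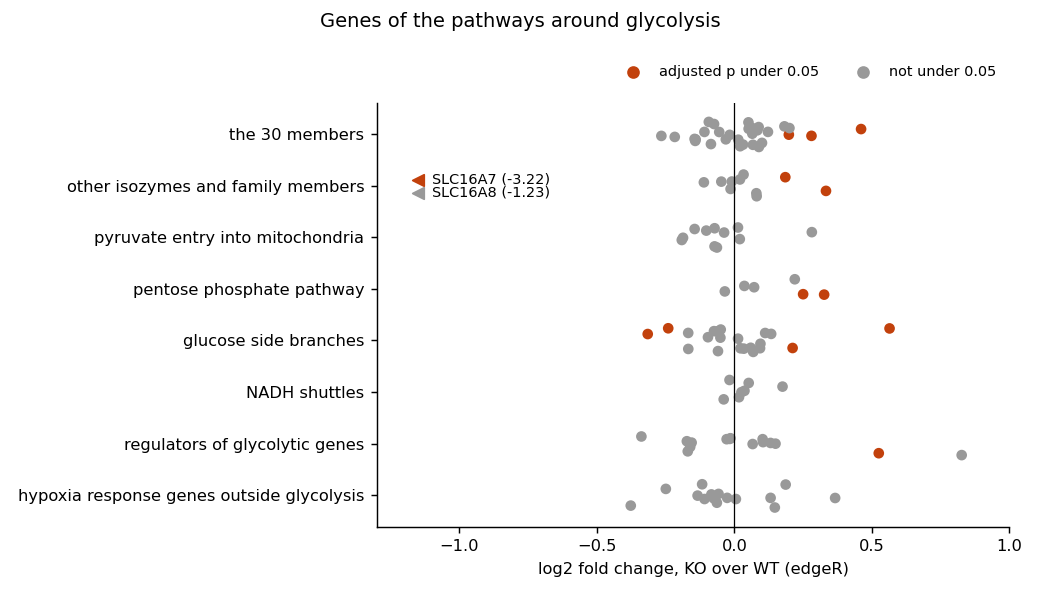
Log2 fold change (knockout over wild-type, x axis) of the tested genes of each list (y axis), with called genes in orange. SLC16A7 at -3.22 and SLC16A8 at -1.23 are drawn near the left edge with their values, and not at their places on the axis. Most genes lie within 0.25 of 0.

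Among 12 other isozymes and family members 2 were higher and 1 lower by edgeR, against 3.06% and 3.50% of all tested genes. The lower one was SLC16A7, the gene of the monocarboxylate transporter MCT2, with 2 and 8 counts in knockout, against 33 and 74 counts in wild-type (log2 fold change -3.22 ± 0.48, edgeR adjusted p = 3.29e-06; 3.22e-11 to 0.00177 over the alternatives). The fold was uncertain at these counts, with log2 fold changes of -4.54 without knockout replicate 2, -2.51 without knockout replicate 1 and -2.67 without wild-type replicate 2. The level was low in both groups. BSG, which encodes the chaperone that brings MCT1 and MCT4 to the cell surface, had 732 and 785 CPM in knockout and 654 and 680 CPM in wild-type (0.19 ± 0.06). BPGM, which makes the bisphosphoglycerate that lowers the oxygen affinity of haemoglobin in red cells, had 27.4 and 31.8 CPM in knockout and 22.9 and 24.1 CPM in wild-type (0.33 ± 0.10). Both calls were lost with DESeq2 (adjusted p = 0.0969 for BSG and 0.223 for BPGM). Over 10 alternatives the adjusted p ran from 0.00143 to 0.498 for BSG and from 0.00491 to 0.476 for BPGM.

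Of 6 pentose phosphate genes 2 were higher and 0 lower by edgeR, against 3.06% and 3.50% of all tested genes. Before adjustment 3 had an edgeR p under 0.05, all higher, against 1362 higher and 1349 lower of all 16233 tested genes. DESeq2 called 0, where it called 3.61% of all genes. H6PD, a dehydrogenase that makes NADPH in the endoplasmic reticulum, had 46.4 and 47.2 CPM in knockout and 36.3 and 38.3 CPM in wild-type (log2 fold change 0.33 ± 0.09, edgeR adjusted p = 0.00924). Over 10 alternatives its adjusted p ran from 0.00251 to 0.193.

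Of 22 genes of glucose side branches 2 were higher and 2 lower by edgeR, against 3.06% and 3.50% of all tested genes. With the date as a replicate block 2 were higher and 4 lower, against 4.72% and 4.83% of all tested genes. The block added PSAT1, a serine synthesis gene (edgeR adjusted p = 0.0305, against 0.679 without the block), and GFPT1. GFPT2, which starts hexosamine synthesis, had 31.9 and 30.4 CPM in knockout and 21.2 and 20.9 CPM in wild-type (log2 fold change 0.56 ± 0.10, edgeR adjusted p = 4.91e-05), with adjusted p from 3.85e-06 to 0.00223 over the alternatives. UAP1, which makes the UDP-linked sugar at the end of the same route, had 62.9 and 58.9 CPM in knockout and 70.4 and 73.5 CPM in wild-type (-0.24 ± 0.08, adjusted p = 0.0457). UGP2, which makes UDP-glucose for glycogen and other uses, had 81.9 and 69.0 CPM in knockout and 96.5 and 91.4 CPM in wild-type (-0.32 ± 0.08, adjusted p = 0.00435). PYGL, the liver glycogen phosphorylase gene, had 262 and 252 CPM in knockout and 218 and 226 CPM in wild-type (0.21 ± 0.06, adjusted p = 0.0174). The calls of UAP1 and PYGL were lost with DESeq2, and those of GFPT2 and UGP2 were kept. Over 10 alternatives the adjusted p ran from 0.0141 to 0.408 for UAP1, from 1.11e-05 to 0.223 for UGP2 and from 0.00284 to 0.351 for PYGL. GFPT1, which catalyses the same first step of the hexosamine route as GFPT2, had 120 and 111 CPM in knockout and 134 and 126 CPM in wild-type. Its log2 fold change of -0.17 ± 0.07 missed the threshold (edgeR adjusted p = 0.152) and passed with the block (0.0384) and without knockout replicate 1 (0.0403), over a range of 0.0384 to 0.728. PSAT1 also passed without knockout replicate 1 (adjusted p = 5.00e-06) and ranged up to 0.979.

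Pyruvate entry into mitochondria (11 genes), the shuttles that carry NADH electrons into mitochondria (7 genes) and hypoxia response genes outside glycolysis (15 genes) had 0 calls each by edgeR and by DESeq2. Over all tested genes these fits called 6.56% and 3.61%. Before adjustment edgeR's p was under 0.05 for 1, 1 and 2 genes of these lists, and for 2711 of all 16233 tested genes. PC, the pyruvate carboxylase gene, came closest, with 39.6 and 43.1 CPM in knockout and 31.2 and 36.7 CPM in wild-type (log2 fold change 0.28 ± 0.09, edgeR adjusted p = 0.0547), and it passed in 4 of 10 alternatives, the replicate block among them (adjusted p = 0.0122, range 0.0122 to 0.690). SLC25A11, the oxoglutarate carrier gene, had 0.18 ± 0.07 (adjusted p = 0.119), and P4HA1, a prolyl hydroxylase gene for collagen, had 0.19 ± 0.08 (adjusted p = 0.215). SLC25A11 passed with the block as well (adjusted p = 0.0293, range 0.0293 to 0.756).

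Among 15 regulators of glycolytic genes 1 was higher and 0 lower by edgeR, against 3.06% and 3.50% of all tested genes. The higher one was EGLN3, an oxygen-dependent prolyl hydroxylase that marks hypoxia-inducible factors for destruction and is itself induced by them. EGLN3 had 34.0 and 34.5 CPM in knockout and 26.9 and 20.9 CPM in wild-type (log2 fold change 0.52 ± 0.10, edgeR adjusted p = 0.000345), called in 9 of 10 alternatives (adjusted p from 5.99e-06 to 0.128) and lost without wild-type replicate 2. Before adjustment 3 regulators on each side had an edgeR p under 0.05, against 1362 higher and 1349 lower of all 16233 tested genes. The sole DESeq2 call was again EGLN3. HIF1A, the subunit of the factor that oxygen controls, had 154 CPM in both knockout libraries, against 159 and 152 CPM in wild-type (-0.01 ± 0.06), and the oncogene MYC had 210 and 244 CPM in knockout and 219 and 288 CPM in wild-type (-0.16 ± 0.19, adjusted p = 0.802). MYC was called lower without wild-type replicate 1 (-0.35, adjusted p = 0.00211, range 0.00211 to 0.999). EPAS1, another transcription factor of this list, had 1.09 and 1.26 CPM in knockout and 0.577 and 0.729 CPM in wild-type. Its log2 fold change of 0.83 ± 0.41 missed the threshold (edgeR adjusted p = 0.297) at these few counts. The other oxygen-sensing genes of this list were not called by edgeR. EGLN1 had 55.1 and 53.5 CPM in knockout and 62.5 and 59.8 CPM in wild-type (-0.17 ± 0.08, edgeR adjusted p = 0.249). EGLN2, VHL and HIF1AN had log2 fold changes of 0.15 ± 0.12, 0.10 ± 0.07 and 0.07 ± 0.08. HIF1A, MYC, EPAS1, EGLN1, EGLN2, VHL and HIF1AN were chosen after their values were seen.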

How the data were processed

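RNA-seq was analysed for 2 knockout and 2 wild-type libraries. The authors deposited raw counts per gene symbol, 1 file per library, with no normalisation. Per the submitters' processing notes, the build was hg38 and the tools were STAR, featureCounts, Subread, SAMtools, cutadapt and FastQC, listed without roles. For tool versions, annotation and strand setting: not given in the sources used here. The small RNA files were not used here.

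Counts were fitted in R 4.3.3 with edgeR 4.0.16: filterByExpr (minimum count 10), TMM scaling, robust quasi-likelihood F test, Benjamini-Hochberg adjustment over 16233 genes and a threshold of 0.05. The standard error is the log2 fold change divided by the square root of F, and 95% intervals use the t distribution of the moderated fit. DESeq2 1.42.0 was an alternative. The biological coefficient of variation was 5.53%. Replicates differed by more than sampling noise (chi-square per degree of freedom 4.69 in knockout and 3.95 in wild-type). The fit was tested on simulated data. Shares carry Wilson intervals (SciPy 1.17.1).

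The labels give each date to 1 knockout and 1 wild-type library, so the date pairs them. Replicate differences correlated at 0.12 across 16233 genes.

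The members and lists were chosen with earlier results of these data known. All 30 members are named, with the called genes of each further list or, where none was called, its gene of smallest p. A few genes of the further lists are counted but not reported here by name. TIGAR and ERO1A were matched by older symbols. Positions are from RefSeq, GRCh38.p14.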

Additional observations from a re-analysis of the deposited data

How the results depend on the processing

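Adding the other isozymes moved 9 differences in share by less than 1 SD. Leaving out 1 of 2 libraries moves a mean by a fixed part of the SD, so it says nothing of stability: the difference in share then ran from -2.56 to 0.397 points for LDHA, -0.266 to 1.33 for SLC16A3, -4.80 to -0.0458 for PDK1 and -0.0912 to 0.00347 for ENO3. Of 310 recomputed log2 fold changes of the members and BCDIN3D, 284 kept direction and call, 5 gained a call, 8 lost one and 13 changed sign, the last among genes that were not called. With DESeq2 255 genes were higher and 331 lower over all genes, and 2 of the further pathway genes were higher. With the replicate block 767 genes were higher over all genes, 1 member was lower, and 5 further pathway genes were lower. With library size alone 4 further pathway genes were higher, and PGAM1 (-0.013) and PGD (-0.0058) changed sign. PFKM lost its call with library size alone, with DESeq2, without a filter and whenever a library was left out.

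Leaving out 1 library gave 240 to 684 genes higher, 340 to 705 lower, 1 to 3 members higher, 0 to 2 members lower, 2 to 9 further pathway genes higher and 1 to 6 lower. Log2 fold changes then ran from -0.060 to 0.20 for SLC2A1, -0.041 to 0.069 for PGAM1, -0.45 to 0.12 for ENO3, -0.18 to 0.027 for SLC16A3, -0.060 to 0.028 for PDK2, -0.0065 to 0.18 for PDK3 and -0.067 to 0.10 for PGD. The cause was not tested. Such fits leave 1 library in a group, which is assumed to vary like the others. Shares per coding length were not run, since no protein lengths were at hand. Depth limits ALDOC, ENO3, PFKFB2, PFKFB4, SLC2A3 and PDK2, each under 700 counts over a group.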
